A study of Mus musculus with 6 samples.

Results

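The genes examined were 9 mouse genes for phosphodiesterases that break down cyclic AMP, Pde4a, Pde4b, Pde4c, Pde4d, Pde7b, Pde8a, Pde1a, Pde3a and Pde10a. They were chosen by name, and every accessible interval overlapping the gene or the 20 kb on either side of it was taken, which gave 814 of the 323483 intervals of the experiment. Each of the 814 belonged to a single one of these genes. In the 5 kb just inside the outer limits of the regions lay 21 intervals, and in the next 5 kb outside lay 20.

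The assay was ATAC-seq, which uses a transposase to cut and tag DNA that is not packed away. The cells were mouse embryonic fibroblasts from the cross M2-rtTA x TetO-Myf6, heterozygous for both alleles, so that all of them, controls included, carried the inducible Myf6 transgene and the transactivator that doxycycline switches on. All cells were cultured for 24 h in iMPC medium with bFGF at 10 ng/mL. In the medium group nothing else was added. In the Myf6 group the transgene was induced with 2 µg/mL doxycycline. The Myf6+F/R/C group had this doxycycline plus 5 µM each of Forskolin and RepSox, and 3 µM CHIR99021. Each of the 3 groups had 2 libraries from 50k cells each, which the labels do not say came from separate cultures.

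The intervals are the joined set over these libraries and hold positions alone, on GRCm38.p6. No value belongs to a library or a group, so none of the values below has a replicate error and differences between the groups were not analysed here. The depth of sequencing is unknown, and the fibroblast label could not be checked against marker levels. An interval shows that a peak was called at a place in at least some of the cells studied, and its width is the extent of joined peaks, not a level.

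Cyclic AMP is made by adenylate cyclases, the enzymes that Forskolin activates, and acts through protein kinase A, the Epac exchange factors and CREB. Phosphodiesterases end the signal by hydrolysing it. The PDE4, PDE7 and PDE8 enzymes act on cyclic AMP alone, whereas PDE1, PDE3 and PDE10 enzymes also act on cyclic GMP. Many of these genes are long and have several promoters, from which long and short enzyme forms with different regulatory N-termini are made. Transcription of several phosphodiesterase genes is known to rise with cyclic AMP through CREB, which binds the cyclic AMP response element TGACGTCA and its shorter core TGACG.

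RefSeq start sites of the same assembly were listed for 8 of the 9 genes, 17 sites in all, and none for Pde3a. Of these 17, 13 lay more than 10 kb inside the outer 5′ end of their gene and mark internal alternative promoters. The 250 bases before 9 of the sites are shown. Of these 9 sites, 7 lie inside an accessible interval, and all of the 7 but that of Pde8a lie inside their gene. The interval over the site also covers the 250 bases, except at Pde4a 21184101 (128 of them) and Pde7b (220). The only listed sites of Pde4d and Pde4c were not in an interval. The 9 are a selection. They hold every site with TGACG and leave out further sites of Pde4a, Pde4b, Pde1a and Pde10a, inside an interval or not. Capitals mark TGACG on either strand and the E-box CANNTG, the kind of element that Myf6 and related muscle factors bind. The sequences are from RefSeq, GRCm38.p6, written 5′ to 3′ along the gene.
Pde10a chr17:8801495-8801744 (+ strand): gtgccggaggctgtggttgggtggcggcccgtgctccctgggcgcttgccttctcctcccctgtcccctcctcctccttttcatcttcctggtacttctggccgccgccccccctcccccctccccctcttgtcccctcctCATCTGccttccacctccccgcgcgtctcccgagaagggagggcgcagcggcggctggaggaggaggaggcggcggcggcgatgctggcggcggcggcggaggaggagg
Pde8a chr7:81213015-81213264 (+ strand): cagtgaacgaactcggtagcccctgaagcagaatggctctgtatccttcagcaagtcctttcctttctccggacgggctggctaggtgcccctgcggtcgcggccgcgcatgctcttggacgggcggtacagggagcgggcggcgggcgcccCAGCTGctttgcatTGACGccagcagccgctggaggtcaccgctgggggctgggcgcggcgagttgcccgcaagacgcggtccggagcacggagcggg
Pde4a chr9:21196455-21196704 (+ strand): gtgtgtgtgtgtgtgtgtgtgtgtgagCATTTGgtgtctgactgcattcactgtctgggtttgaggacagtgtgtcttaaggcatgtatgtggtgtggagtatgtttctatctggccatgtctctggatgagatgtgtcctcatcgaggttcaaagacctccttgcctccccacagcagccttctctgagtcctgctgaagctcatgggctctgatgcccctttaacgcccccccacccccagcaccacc
Pde4a chr9:21183851-21184100 (+ strand): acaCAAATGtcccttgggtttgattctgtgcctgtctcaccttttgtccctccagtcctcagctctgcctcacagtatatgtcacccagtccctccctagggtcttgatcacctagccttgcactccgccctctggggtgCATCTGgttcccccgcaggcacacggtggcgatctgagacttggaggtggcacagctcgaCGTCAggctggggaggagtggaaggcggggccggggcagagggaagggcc
Pde4b chr4:102421305-102421554 (+ strand): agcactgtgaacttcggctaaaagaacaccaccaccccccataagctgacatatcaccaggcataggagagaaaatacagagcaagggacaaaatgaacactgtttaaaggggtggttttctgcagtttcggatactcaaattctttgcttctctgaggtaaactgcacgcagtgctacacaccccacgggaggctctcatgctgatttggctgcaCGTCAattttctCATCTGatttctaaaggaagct
Pde7b chr10:20548329-20548578 (- strand): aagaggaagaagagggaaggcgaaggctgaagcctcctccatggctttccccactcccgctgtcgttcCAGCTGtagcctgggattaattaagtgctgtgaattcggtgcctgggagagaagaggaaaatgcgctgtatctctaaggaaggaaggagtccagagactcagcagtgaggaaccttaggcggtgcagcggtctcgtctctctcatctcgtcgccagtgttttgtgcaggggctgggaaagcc
Pde1a chr2:80038903-80039152 (- strand): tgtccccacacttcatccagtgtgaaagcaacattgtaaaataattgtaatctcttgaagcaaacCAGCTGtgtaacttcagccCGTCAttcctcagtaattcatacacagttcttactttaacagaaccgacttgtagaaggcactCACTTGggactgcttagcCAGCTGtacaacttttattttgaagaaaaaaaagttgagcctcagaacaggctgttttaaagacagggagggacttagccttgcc
Pde4d chr13:108653927-108654176 (+ strand): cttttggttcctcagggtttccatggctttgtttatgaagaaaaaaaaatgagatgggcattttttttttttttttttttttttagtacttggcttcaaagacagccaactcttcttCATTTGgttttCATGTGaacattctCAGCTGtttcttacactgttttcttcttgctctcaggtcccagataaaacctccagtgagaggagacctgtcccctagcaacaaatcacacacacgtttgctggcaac
Pde4c chr8:70723814-70724063 (+ strand): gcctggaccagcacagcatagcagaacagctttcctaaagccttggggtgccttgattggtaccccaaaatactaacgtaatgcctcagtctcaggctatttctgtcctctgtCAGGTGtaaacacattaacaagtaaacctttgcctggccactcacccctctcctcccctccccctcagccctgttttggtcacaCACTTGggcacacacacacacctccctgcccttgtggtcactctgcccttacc

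Of the 17 start sites, 11 lay inside an interval, and these fell in 10 distinct intervals because a pair of Pde1a sites shared one. Over all 21263 listed start sites of protein-coding genes the share was 64.1%, against 64.7% for the 9 genes, so the phosphodiesterase sites were inside intervals at nearly the background rate. Intervals of at least 1000 bp held 5 of the 17 sites (29.4%), against 47.6% of all sites. Among the 13 internal sites 10 were inside an interval. In genes with several listed sites, 66.3% of the sites after the first were inside one. That share is of an unlike set. The 13 include the first or only listed sites of Pde10a, Pde1a, Pde4b and Pde7b, all of them inside an interval.

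CpG was sparse at these start sites. The ratio of observed to expected CpG over the 250 bases had a median of 0.215 at the 17 sites and 0.53 over all sites. Of the 12 sites with a ratio under 0.4, 7 were accessible (58.3%), against 26.9% of the 8678 such sites in the genome. Of the 5 sites at or above 0.4, 4 were accessible, against 89.8%. The accessible sites poor in CpG were those of Pde4b (3 sites), Pde4a (2 sites) and Pde1a (2 sites). The first listed sites of Pde4b and Pde1a, at 0.379 each, were close to the limit, and no other limit was tried. That Pde1a site shares its interval with a site at 0.404, which counts in the other class. The 26.9% is over all such sites and is not limited to genes with several listed sites. Neighbouring sites of a gene are not independent, and no test was made.

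**Figure D1:**
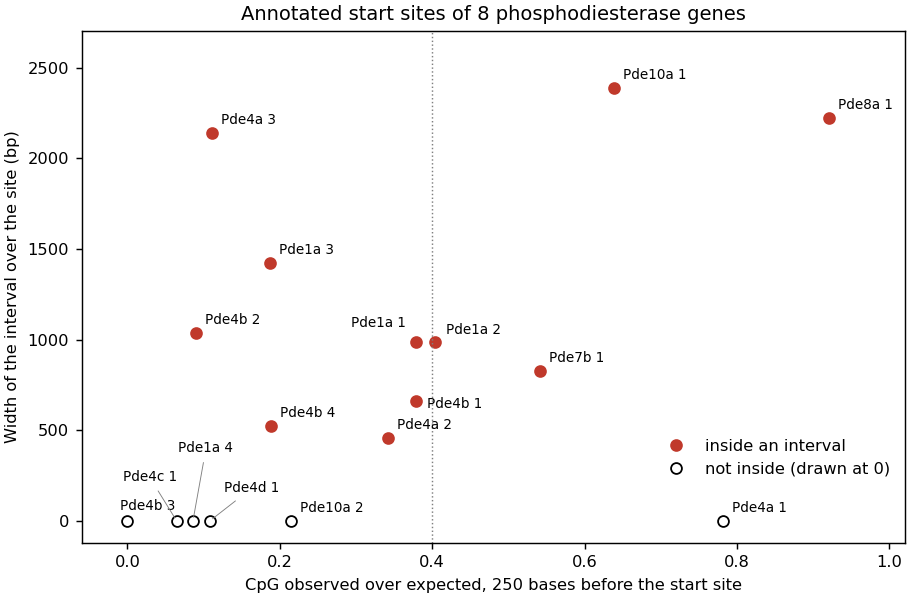
Each point is one of the 17 listed start sites, numbered 5′ to 3′ within its gene. The x axis is observed over expected CpG in the 250 bases before the site, with a dotted line at 0.4, and the y axis is the width in bp of the interval over the site, at 0 where there is none. Pde10a 1, Pde8a 1 and Pde4a 3 lie in intervals of 2389, 2222 and 2137 bp, and Pde4a 1 is the site rich in CpG that lies outside an interval.

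The regions held between 17 (Pde4c) and 261 (Pde4d) intervals with a median of 63. Per 100 kb the median was 21.2, against 18.2 over all 21887 protein-coding genes (quartiles 9.17 and 25.4) and 17.1 over the 2431 genes of 100 kb or more. Above the median of all genes stood 8 of the 9, with Pde1a below it. With intervals of at least 600 bp alone, 4 of the 9 were above it, and Pde4b, Pde4d, Pde7b and Pde3a were below it as well. The share of sequence covered had a median of 8.98% over the 9 genes and 9.19% over all genes. Of the intervals, 61 of the 814 were 1000 bp or wider (7.49%), against 8.71% of all intervals, and the median was 329 bp against 336 bp.

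**Figure D2:**
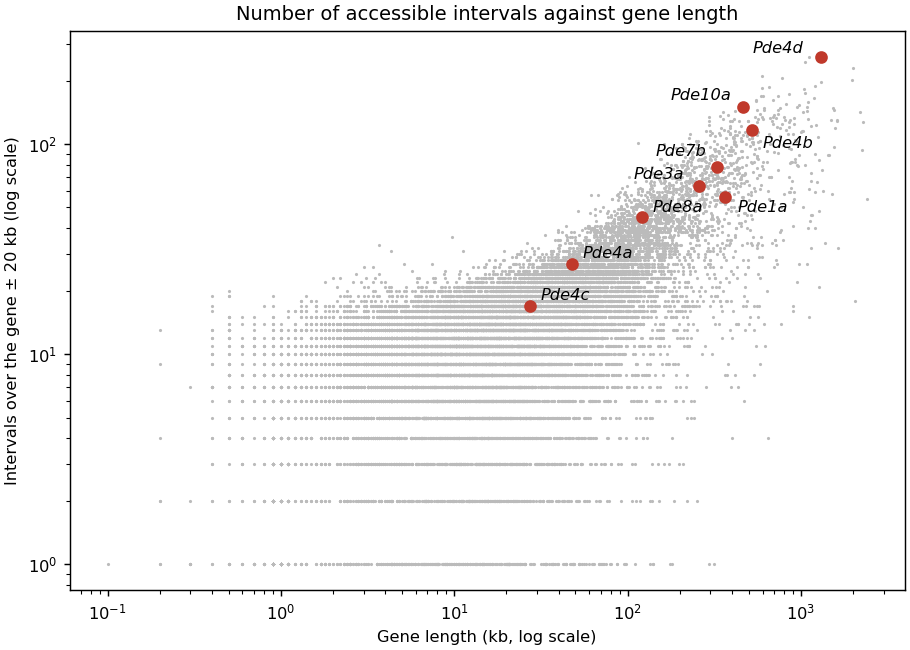
Each grey point is a protein-coding gene with at least 1 interval, and red points are the 9 phosphodiesterase genes. The x axis is gene length in kb and the y axis the number of intervals over the gene and 20 kb on either side, both on log scales. Pde4d, at 261, sits at the top of the plot, and Pde1a has fewer intervals than the shorter Pde7b and Pde3a.

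At least one gene end had an interval within 1 kb in 7 of the 9 genes, against 74.7% of all protein-coding genes, and both ends had one in 2, Pde4a and Pde4b, against 31.7%. Among genes of 100 kb or more, 5 of the 7 members had an interval at either end. This was a smaller share than the 2189 of all 2431 genes of that length. The outer 5′ end itself was spanned in Pde4b, Pde7b, Pde8a and Pde10a, as was the lower end of Pde3a. Pde4d and Pde1a had none at either end. Wide internal intervals, defined as at least 1000 bp and centred more than 1 kb from both gene ends, numbered 49 over the 9 genes. All 9 had at least 1, against 25.5% of all protein-coding genes, a comparison that favours long genes. Of the 7 members of 100 kb or more all had one, against 74.3% of genes of that length. That comparison is not matched for length either, as the 7 span 121.3 to 1301.8 kb. Per 100 kb of gene the 7 had a median of 1.15 wide internal intervals. The median over all genes of 100 kb or more was 0.848, with an upper quartile of 1.77. The widths nearest the limit were 1001, 1001 and 1004 bp inside it and 973, 980 and 989 bp outside it. Of the 49 wide internal intervals, 4 held a listed start site of the gene itself, 1 held that of a non-coding RNA gene, and 44 held none. The 44 include the 3 of Pde3a, for which no start site was listed. They also include those of Pde4c and Pde8a and all but 1 of those of Pde4d. The only site listed for each of these genes lies within 1 kb of its outer 5′ end, while these intervals are centred farther in. The lack of a listed site in them therefore does not show that no promoter lies there.

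Pde4d encodes a cyclic AMP-specific enzyme with many long and short forms. It lies on chromosome 13 from 108654177 to 109955969 (gene ID 238871, + strand) and spans 1301.8 kb. With 261 intervals it tied with Auts2 for the highest number of all 21887 protein-coding genes, while it was the 22nd longest. Per 100 kb it had 19.5, and 45.7% of all genes had as many or more. Its only listed start site, at the outer 5′ end, was in no interval: the nearest, 163 bp wide, was 7176 bp away. The sequence before the site, printed above, has a GC content of 38.8%. Inside the gene it had 25 wide internal intervals, again level with Auts2 at the top of all genes. Per 100 kb of gene this was 1.92, a value reached by 21.5% of genes of 100 kb or more.

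The wide intervals of Pde4d were not spread evenly. Between chr13:109611372-109695366, a stretch of 84.0 kb, 7 of the 25 followed each other with less than 25 kb between neighbours. They included the second widest, chr13:109693709-109695366 (1658 bp), 1040.4 kb inside the gene. The widest was chr13:109116014-109117732 (1719 bp), 462.7 kb inside. A 1630 bp interval, chr13:109440272-109441901, held both listed start sites of Gm32703, a non-coding RNA gene on the opposite strand, and could therefore belong to either gene. Close to the 3′ end lay chr13:109902447-109903758 (1312 bp) and chr13:109914801-109916258 (1458 bp). With the gene cut into 10 equal parts from 5′ to 3′, the eighth and the ninth held 35 intervals each and the fourth held 11, and the eighth had 14.0% of its sequence covered against 4.71% in the fourth. The longest stretch of Pde4d without an interval measured 36.6 kb (chr13:108776243-108812836).

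**Figure D3:**
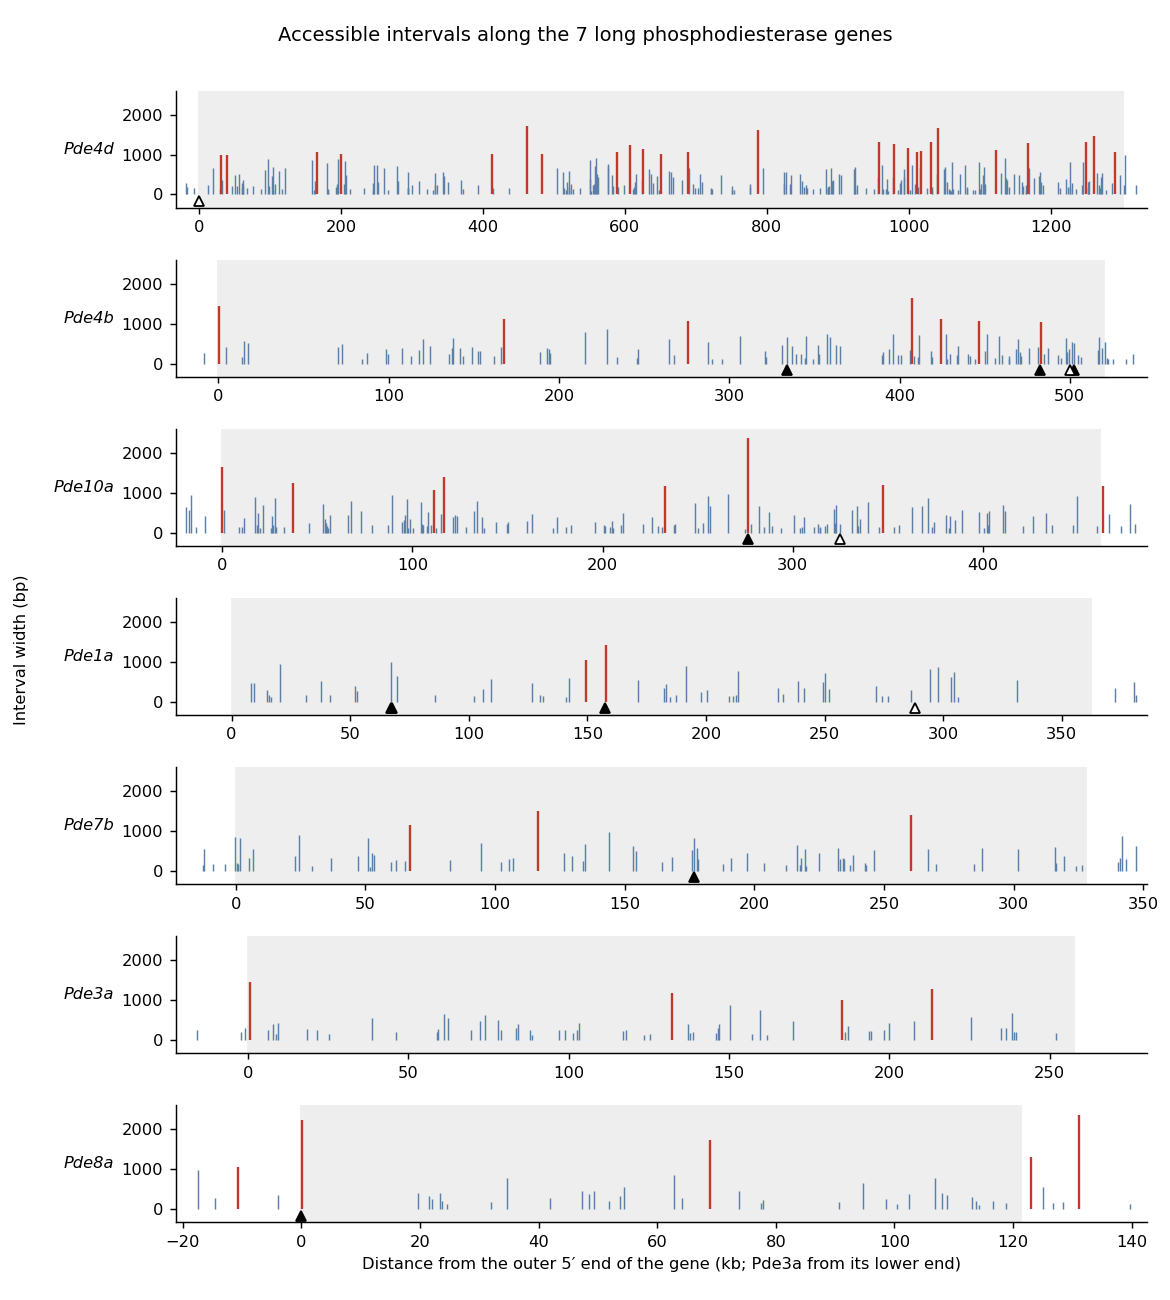
Each panel is a gene of 100 kb or more (grey, with 20 kb on either side), each line an interval at its distance in kb from the outer 5′ end of the gene (for Pde3a, from the lower end), and line height its width in bp. Red lines are at least 1000 bp, filled triangles are listed start sites inside an interval and open triangles listed sites outside one. Pde4d has an open triangle at its 5′ end and wide intervals in all but the third of 10 equal parts, whereas the widest interval of Pde10a stands over its internal start site.

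Pde4b, known for its part in inflammatory signalling of immune cells, lies on chromosome 4 from 102087332 to 102607275 (gene ID 18578, + strand, 519.9 kb). It had 117 intervals (20.9 per 100 kb). An interval of 1451 bp, chr4:102087249-102088699, spanned its outer 5′ end. All 4 listed start sites lie in the other part of the gene, between 334.2 and 502.5 kb inside it, and 3 were accessible. The first of them, at 102421555, was in an interval of 664 bp and has the core TGACG on the reverse strand, 34 to 30 bases before it. The second, at 102570060, was in one of 1036 bp, and the fourth, at 102589843, in one of 523 bp. The third, at 102587558, lay 370 bp from the nearest.

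Intervals of Pde4b were most numerous toward its 3′ end. The last of 10 equal parts, with 3 of the listed start sites, held 21 intervals (16.2% of its sequence), and the ninth, with none of them, held 19. The first held 5 (5.83%). Its widest interval, chr4:102493782-102495416 (1635 bp), was 72227 bp from the nearest listed start site. With chr4:102510918-102512044 (1127 bp), which overlaps the non-coding gene Gm52668, and chr4:102533245-102534304 (1060 bp) it made a run of 3 wide intervals over 40.5 kb. A stretch of 52.4 kb near the 5′ end (chr4:102104989-102157412), 10.1% of the gene, had no interval at all, the longest such stretch in the 9 genes.

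Pde4a, a smaller gene of the same subfamily, lies on chromosome 9 from 21165700 to 21213248 (gene ID 18577, + strand, 47.5 kb). Its region held 27 intervals, 30.8 per 100 kb, a value that 11.0% of protein-coding genes reached, and 18.4% of the sequence was covered. Only 12 of the 27 lay over the gene, and 3 of those in the flanks overlapped other protein-coding genes. The first start site, at 21165714, is rich in CpG (0.782, GC 68.8%) yet fell between intervals: chr9:21164955-21165540 (586 bp) ended 174 bp before it, and chr9:21166054-21166383 (330 bp) began after it. The 586 bp interval overlaps Gm36118, a non-coding RNA gene on the opposite strand. The listed start of Gm36118 lies 128 bp from this interval, which could therefore belong to either gene. A wider interval, chr9:21167548-21169325 (1778 bp), followed 1834 bp downstream of the Pde4a site.

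Both internal start sites of Pde4a were accessible. The second, at 21184101, 18.4 kb inside the gene, was in an interval of 459 bp, and its upstream bases hold the core TGACG on the reverse strand, 50 to 46 bases before the site. The third, at 21196705, 31.0 kb inside, was in an interval of 2137 bp, chr9:21194823-21196959, the widest over the gene, although its CpG ratio was only 0.111. Of all intervals in the experiment 0.339% were that wide.

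Pde4c, on chromosome 8 from 70723835 to 70751186 (gene ID 110385, + strand, 27.4 kb), was the gene of this subfamily with the fewest intervals over its body, 5 of the 17 in its region. In the flanks, 10 of the other 12 overlapped other protein-coding genes, and the coverage of 16.8% of the region includes these neighbours. Its listed start site at 70724064 was 1913 bp from the nearest interval. The only interval of Pde4c within 1 kb of a gene end was one of 166 bp, 903 bp beyond the 3′ end. The single wide interval of Pde4c, chr8:70743069-70744697 (1629 bp), lay 20.0 kb inside the gene and 19005 bp from that start site.

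**Figure D4:**
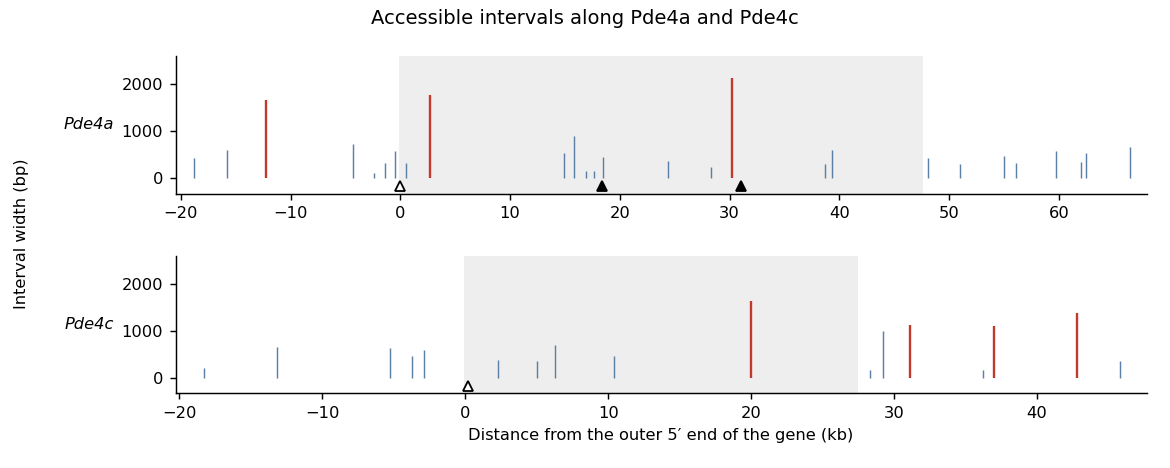
The genes Pde4a and Pde4c (grey) are drawn with 20 kb on either side, with intervals as lines at their distance in kb from the outer 5′ end and width in bp as height, red at 1000 bp or more. Triangles are listed start sites, filled where inside an interval. In Pde4a the tallest line, 2137 bp, stands at the third start site, and in Pde4c 3 of the 4 red lines stand beyond the gene.

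Pde7b encodes a cyclic AMP-specific enzyme of high affinity. The gene is on chromosome 10 from 20397052 to 20725078 (gene ID 29863, − strand, 328.0 kb) and its region held 78 intervals, 21.2 per 100 kb. Its outer 5′ end was spanned by an interval of 858 bp, chr10:20724922-20725779, and the 1 kb inside it held 2 narrower ones of 160 and 197 bp. The listed start site, at 20548328, lies 176.8 kb inside the gene and was covered by an interval of 829 bp, chr10:20547720-20548548. The widest, chr10:20607699-20609192 (1494 bp), chr10:20463780-20465186 (1407 bp) and chr10:20657356-20658506 (1151 bp), were all more than 59 kb from this start, the nearest by 59371 bp.

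Pde8a encodes another high-affinity enzyme for cyclic AMP. Of the intervals over the gene itself, the widest was at its start site, while 3 of at least 1000 bp lay in the flanks. The gene lies on chromosome 7 from 81213265 to 81334535 (gene ID 18584, + strand, 121.3 kb). Its start site, with a GC content of 68.8% and a CpG ratio of 0.921, was inside an interval of 2222 bp, chr7:81212247-81214468. The upstream bases hold TGACG, 84 to 80 bases before the start, and the E-box CAGCTG, 98 to 93 bases before it. After this promoter came 18.3 kb (15.1% of the gene) without an interval. A single wide internal interval, chr7:81281324-81283056 (1733 bp), lay 68.9 kb inside the gene. Pde8a had 45 intervals in all, 27.9 per 100 kb.

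Pde10a, whose enzyme acts on both cyclic nucleotides and is best known in the striatum of the brain, had the most intervals of the 9 genes after Pde4d. It lies on chromosome 17 from 8525187 to 8986648 (gene ID 23984, + strand, 461.5 kb) and had 150 intervals, the 26th highest number of all genes, at 29.9 per 100 kb. This density was reached by 7.86% of genes of 100 kb or more. The outer 5′ end was spanned by chr17:8524131-8525780 (1650 bp). The widest interval of all 9 regions, chr17:8800419-8802807 (2389 bp), covered the listed start site at 8801745, 276.6 kb inside the gene. Its 250 upstream bases, printed first above, have a GC content of 72.8%, and only 0.151% of all intervals were as wide. The other listed site, at 8849985, lay 172 bp from a narrow interval of 227 bp.

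Upstream of both listed start sites, the third of 10 equal parts of Pde10a stood out with 25 intervals. It had 23.4% of its sequence covered, against 9 intervals and 5.07% in the fourth. In it lay chr17:8635913-8636982 (1070 bp) and chr17:8640851-8642254 (1404 bp). The densest 20 kb of any of the 9 genes was here too, with 15 intervals between chr17:8619658-8639657. Narrow intervals under 200 bp made up 36.0% of those of Pde10a, against 28.4% of all intervals.

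Pde1a, a calcium- and calmodulin-stimulated enzyme gene on chromosome 2 from 79834453 to 80196522 (gene ID 18573, − strand, 362.1 kb), was the sparsest. It had 56 intervals, 13.9 per 100 kb, a density reached by 63.6% of genes of 100 kb or more. No interval was within 1 kb of either end, and the nearest to the outer 5′ end was 7716 bp away. Its internal promoters were nevertheless accessible. Start sites at 80129412 and 80128971 shared an interval of 989 bp, and the site at 80038902 was inside the widest interval of the gene, chr2:80037886-80039307 (1422 bp), 157.6 kb inside. Upstream of the latter lie TGACG on the reverse strand and 2 copies of CAGCTG. The fourth site, at 79908399, was 1810 bp from an interval. At the 3′ end the last 30.8 kb of Pde1a held none.

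Pde3a encodes an enzyme that cyclic GMP inhibits, known from heart, vessels and oocytes. It lies on chromosome 6 from 141249269 to 141506862 (gene ID 54611, 257.6 kb). Its 63 intervals (21.2 per 100 kb) had a median width of 257 bp, and the median of all intervals was 336 bp. The lower end of the gene was spanned by an interval of 1451 bp, chr6:141249163-141250613, and the upper end had none within 5461 bp. Wide internal intervals were at chr6:141380768-141381943 (1176 bp), chr6:141434058-141435058 (1001 bp) and chr6:141461876-141463142 (1267 bp). Over 10 equal parts from the lower end, the number of intervals ranged from 2 to 10.

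**Figure D5:**
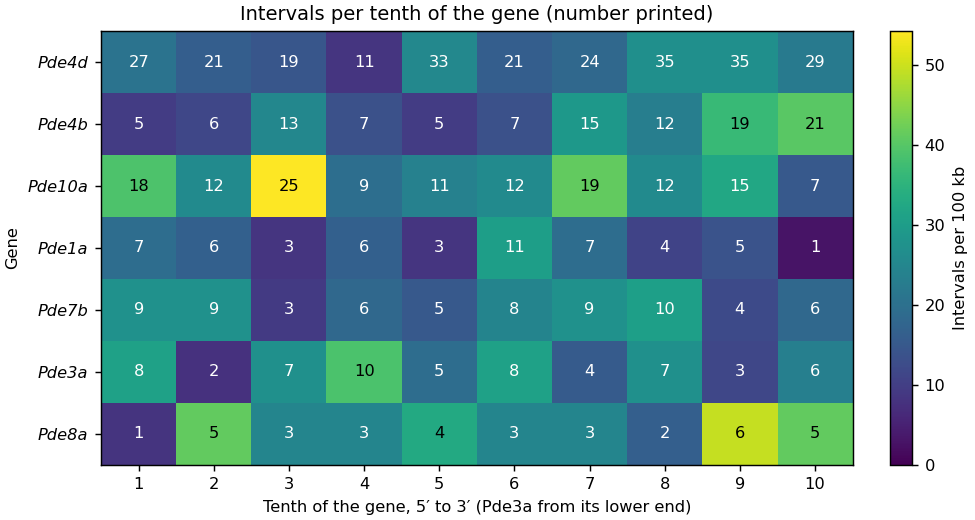
Each row is a gene of 100 kb or more cut into 10 equal parts from 5′ to 3′ (Pde3a from its lower end), with the number of intervals printed and the colour giving intervals per 100 kb. Pde4b fills toward its 3′ end, with 19 and 21 in the last parts, while the third part of Pde10a, with 25, has the highest density.

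Letters of regulatory elements were counted in the 250 bases before each start site, on both strands. The full element TGACGTCA was in none of the 17 and in 1.55% of all 32851 listed promoters of coding and non-coding genes. Its core TGACG, which the full element contains, was in 4 of the 17 (23.5%), those of Pde8a, Pde4a at 21184101, Pde4b at 102421555 and Pde1a at 80038902, against 17.8% of all. All 4 were inside an interval, as were 11 of all 17 sites. For all promoters with TGACG the share inside an interval was not determined. The AP-1 element TGANTCA was in none, against 6.75%. E-boxes CANNTG were in 15 (88.2% against 66.2%), and the form CAGCTG, which is one of them, in 6 (35.3% against 13.0%). These 6 belong to Pde8a, Pde7b, Pde4d, Pde10a at 8849985 and Pde1a at 80129412 and 80038902, of which 4 were accessible. The promoters compared were not matched for base composition. Median GC content was 50.8% at the 17 sites and 55.6% over all start sites of protein-coding genes. With 17 sites, several from the same gene, these shares are a description of letters, not of binding.

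Outside the 9, the other 16 phosphodiesterase genes had a median of 20.9 intervals per 100 kb, and 10 of them stood above the median of all genes, or 5 when gene bodies alone were counted. Pde12 (35.0), Pde6h (29.3), Pde2a (28.2) and Pde7a (27.3) were the densest, although 15 of the 16 intervals of Pde12 and 11 of the 15 of Pde6h lay in the flanks. Lowest were Pde1c (9.8) and the cone photoreceptor gene Pde6c (9.87), followed by Pde3b, Pde5a and Pde11a (14.7 each). An interval within 1 kb of an end was found in 12 of the 16. Pde6a, Pde6b, Pde6c and Pde6h had none at either end, whereas of the same subfamily Pde6g had intervals at its lower end and Pde6d at both ends. Start sites were listed for 10 of the 16, and 17 of these 22 sites were inside an interval (77.3%). Several sites of Pde8b, Pde2a and Pde1c shared an interval, so these sites stand for fewer intervals.

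Genes acting on the signal after cyclic AMP were described in the same way. The 14 genes for subunits of protein kinase A, Epac factors and anchoring proteins had a median of 24.9 per 100 kb, with 12 above the median of all genes, and 24 of their 28 listed start sites (85.7%) were inside an interval, 20 of them in one of at least 1000 bp (71.4%). Several sites of Prkar1a, Prkar1b and Prkar2b shared an interval, so these sites stand for fewer intervals. Rapgef3 (37.7), which encodes an Epac factor, the anchoring protein gene Akap13 (32.7), the regulatory subunit gene Prkar1b (30.0) and the catalytic subunit gene Prkaca (26.8) came first. Akap9 (14.5), Akap6 (15.7), Prkacb (21.9) and Pde4dip (23.0) came last. However, 13 of the 17 intervals of Prkaca and 16 of the 24 of Rapgef3 lay in the flanks. Over the gene body alone Prkaca had 17.0 per 100 kb and Rapgef3 33.8. Whether these genes and the 9 phosphodiesterase genes differ was not tested.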

How the data were processed

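Per the labels' protocols, each Omni-ATAC library came from 50k cells and was amplified for 12 cycles. BWA, MACS2 and DESeq2 are named without version or role, with GRCm38.p6, per the submitters' processing notes. The intervals are consensus peaks annotated by HOMER annotatePeaks against GENCODE vM23, per the file headers. The calling and joining of peaks: not given in the sources used here. Deposited positions are 1-based. The peak score is 0 for every interval and the annotation columns are empty, so neither was used.

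Gene spans and start sites came from RefSeq tables of GRCm38.p6 (all 9 genes matched). An interval counted for a region with an overlap of at least 1 bp. Start sites, motifs and CpG were read from the promoter table, using the 250 bases before each site. The comparisons with all genes are descriptions, and no test was run, since no value belongs to a library. The genes, lists, the CpG limit of 0.4 and the settings were chosen with earlier results of these data known. All 9 genes are named with their widest internal intervals and some, not all, of their end intervals. Of the other lists the 4 densest and 4 least dense genes are named, with ties. Not all wide intervals of Pde4d are named. Overlap counting was tested on simulated data. Python 3.11.15 with numpy 2.4.6, pandas 2.3.3 and matplotlib 3.10.9 was used.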

Additional observations from a re-analysis of the deposited data

How the results depend on the processing

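No paired analysis was possible because no value belongs to a library, and for the same reason no library could be left out. Of 100 combinations of a result and an alternative setting, 88 stayed within 1.5 times the reported value and on the same side of the median gene. With intervals of at least 600 bp only, 4 rather than 8 of the 9 genes were denser than the median gene: Pde4b (0.891 times the median), Pde4d (0.997), Pde7b (0.868) and Pde3a (0.604) fell below it, while Pde4c moved from 1.39 to 2.37 times. Pde3a was also below it with intervals of at least 300 bp (0.923), and Pde4c over the gene body alone (0.985). Pde1a was below the median gene under every setting tried (0.645 to 0.814). Over gene bodies alone, 5 rather than 10 of the other phosphodiesterase genes were above the median. The number of wide internal intervals was 83 at a limit of 800 bp and 9 at 1500 bp, and for Pde4d 36 and 3. Other distances and widths for gene ends and start sites, those for start sites chosen after the data were seen, gave 5 to 8 genes with an end interval and 9 to 14 accessible start sites. The unknown depth limits what the absence of an interval shows. The causes of these changes were not tested beyond the settings themselves.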

Other observations

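Pde4d hosts 2 microRNA genes. Mir1904, at chr13:109903809-109903888, lay 51 bp from the edge of a 1312 bp interval, and Mir582, at chr13:109324744-109324824, lay 2137 bp from an interval of 432 bp. Of the non-coding RNA genes whose listed start lies over one of the 9 genes, Gm32703 in Pde4d was the one with its start inside an interval, while the starts of Gm52669, Gm52668 and Gm52667 in Pde4b, Gm10400 in Pde3a, Gm34255 in Pde4c and Gm34321 in Pde10a were not. Among neighbouring protein-coding genes, Gm3336, Rab3a, Mpv17l2 and Ifi30 beside Pde4c had their starts in intervals of 627, 1128, 1106 and 1377 bp, 1700010I14Rik beside Pde10a in one of 1169 bp, and Cdc37 beside Pde4a had its start in one of 605 bp.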
